A study of Bos taurus with 12 samples.

Results

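TBX2 and TBX20 encode transcription factors of the T-box family. They were chosen by their gene identifiers from a bulk messenger RNA count table of bovine embryonic stem cells, because earlier results of the same counts had shown both far higher in 1 of the 4 groups. They are 2 of 18885 entries kept from that table. All values of TBX2 and TBX20 below are therefore a description of these libraries, without a test.

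The cells were the bovine embryonic stem cell line F7, labelled wild type, which is a single line. Poly-A RNA was sequenced in 12 libraries, 3 per group. The group 1/7MC+Pyr+FGF joined the reduced condition with pyruvate and with basic fibroblast growth factor (FGF), which the series title gives as a recombinant human protein. The group 1/7MC+Pyr joined it with pyruvate alone, 1/7MC was the reduced condition with nothing added, and MC carried the treatment label NC. The title speaks of feeder layers at low density, but the labels do not spell out MC, and the group names are kept as the labels have them. Since no label says whether replicates were separate cultures, every p-value below measures only the spread between these samples, which may be technical.

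T-box factors share a DNA-binding region and switch developmental genes on or off. In mouse and human, TBX2 acts mainly as a repressor, is the closest relative of TBX3, and is induced by bone morphogenetic protein (BMP) signalling in heart and eye. In the mouse heart it keeps the atrioventricular canal from turning on chamber muscle genes. TBX20 is needed in mouse for growth of the heart chambers, where it holds Tbx2 down, and it is also found in motor neurons of the brainstem and in the developing eye.

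Total counts ranged from 27373759 to 44440972 per library, and 13920 genes had enough counts to be tested. Levels are given in CPM, the count of a gene scaled to the library's total. The counts of MC replicates 2 and 3 came from gene models that differ from those behind the remaining 10 libraries, so results that set a group against MC were also computed with MC replicate 1 alone. The stem cell label was checked on 9 pluripotency markers, none of which was at 0 in any group. Their summed level was 3372 to 3798 CPM in 1/7MC+Pyr+FGF, 4210 to 4453 CPM in 1/7MC+Pyr, 2523 to 2816 CPM in 1/7MC and 4502 to 4591 CPM in MC. The 16 fibroblast and feeder markers were also present throughout, with a summed level of 15960 to 22746 CPM in 1/7MC+Pyr+FGF, 23659 to 35353 CPM in 1/7MC+Pyr, 20249 to 27420 CPM in 1/7MC and 6701 to 6907 CPM in MC.

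TBX2 (ENSBTAG00000014278) was high in 1/7MC and came down part of the way with pyruvate, and its level was higher again where FGF was added on top. Its replicates 1 to 3 read 2.13, 1.54 and 2.95 CPM in 1/7MC+Pyr+FGF. With pyruvate alone, in 1/7MC+Pyr, they read 0.891, 0.805 and 0.959 CPM. In 1/7MC they read 13.5, 14.7 and 14.0 CPM, and in MC 0.280, 0.223 and 0.371 CPM. No library of any group overlapped a library of another, and the order from the highest was 1/7MC, 1/7MC+Pyr+FGF, 1/7MC+Pyr and MC.

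TBX20 (ENSBTAG00000017541) was high in 1/7MC alone. Its replicates 1 to 3 read 0.141, 0.272 and 0.312 CPM in 1/7MC+Pyr+FGF. They read 0.411, 0.115 and 0.284 CPM in 1/7MC+Pyr. They read 15.5, 21.7 and 17.4 CPM in 1/7MC, and 0.252, 0.319 and 0.223 CPM in MC. The 3 libraries of 1/7MC stood above all 9 others, while 1/7MC+Pyr+FGF, 1/7MC+Pyr and MC overlapped, so that no order can be given among these 3 groups.

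**Figure D1:**
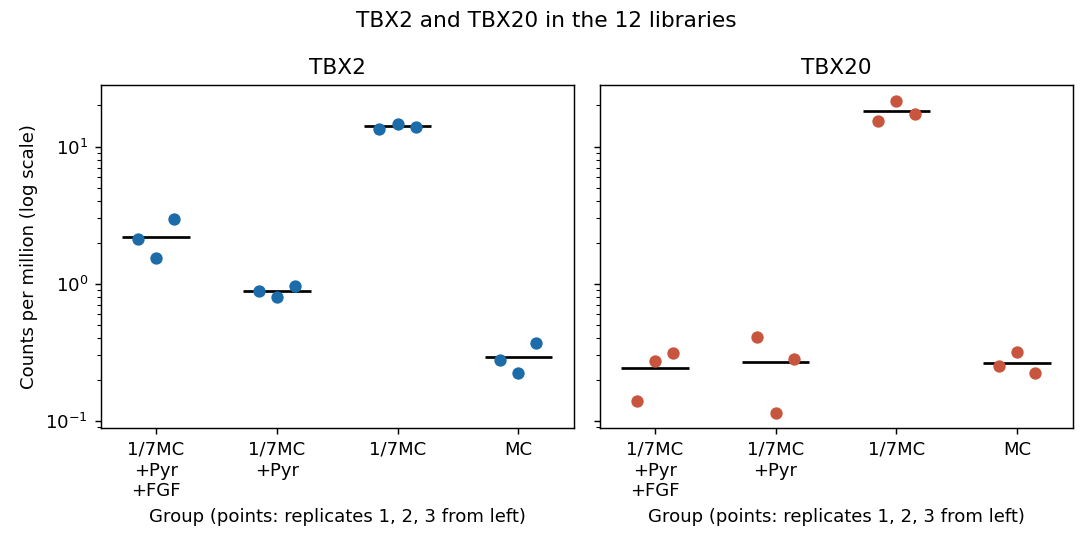
CPM (log scale) of TBX2 (left) and TBX20 (right) in the 12 libraries by group, with replicates as points and group means as bars. TBX2 lies at 4 separate levels, with means of 2.21, 0.885, 14.1 and 0.292 CPM from left to right, whereas TBX20 is high only in 1/7MC at a mean of 18.2 CPM.

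The low levels rest on few reads. TBX2 had 246 counts in all in 1/7MC+Pyr+FGF, 81 in 1/7MC+Pyr, 1441 in 1/7MC and 27 in MC. The exact 95% Poisson intervals of these sums, which cover counting error only, were 216 to 279, 64.3 to 101, 1368 to 1517 and 17.8 to 39.3 counts in the same order of groups, and they did not overlap. TBX20 had 26 counts in all in 1/7MC+Pyr+FGF (17.0 to 38.1), 24 in 1/7MC+Pyr (15.4 to 35.7), 1879 in 1/7MC (1795 to 1966) and 25 in MC (16.2 to 36.9). A difference of TBX20 among the 3 low groups was not detectable at this depth.

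In 1/7MC against MC, TBX2 was higher by 5.59 ± 0.27 and TBX20 by 6.08 ± 0.32 on the log2 scale (fitted fold with its standard error, n = 3 libraries per group). Mean levels were 14.1 ± 0.629 CPM in 1/7MC and 0.292 ± 0.0745 CPM in MC for TBX2 (SD), and 18.2 ± 3.20 CPM in 1/7MC and 0.265 ± 0.0495 CPM in MC for TBX20. Of all genes tested in this comparison 45.0% were called and 23.7% were called higher, which says nothing of TBX2 and TBX20, since these values chose them. With MC replicate 1 alone the folds were 5.64 for TBX2 and 6.17 for TBX20. In these bulk samples, fewer cells of a type and less RNA per cell cannot be told apart. All 16 fibroblast and feeder markers were higher in the same comparison, with a median log2 fold of 1.83 against 0.00 over all genes, and their part in the levels of TBX2 and TBX20 was not tested.

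Pyruvate was accompanied by lower levels of both genes, to a different extent. The log2 fold in 1/7MC+Pyr against 1/7MC was -3.99 ± 0.23 for TBX2, with means of 0.885 ± 0.0771 CPM in 1/7MC+Pyr and 14.1 ± 0.629 CPM in 1/7MC. It was -6.09 ± 0.32 for TBX20, with means of 0.270 ± 0.149 CPM in 1/7MC+Pyr and 18.2 ± 3.20 CPM in 1/7MC. In this comparison 18.1% of all genes were called and 10.1% were called lower.

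Measured against MC, TBX2 remained apart with pyruvate and TBX20 did not. TBX2 was higher in 1/7MC+Pyr than in MC by 1.60 ± 0.30 on the log2 scale, with all 3 libraries of 1/7MC+Pyr above all 3 of MC. TBX20 differed by -0.02 ± 0.44 between 1/7MC+Pyr and MC, and leaving out 1 library at a time moved that value between -0.46 and 0.37. Of the log2 distance between 1/7MC and MC, 1/7MC+Pyr covered 71.4% for TBX2 and 100.3% for TBX20. On the linear CPM scale the covered shares were 95.7% for TBX2 and 99.97% for TBX20. Of all genes, 28.4% were called and 15.2% were called higher in 1/7MC+Pyr against MC.

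With FGF on top of pyruvate TBX2 was higher and TBX20 was not set apart. The log2 fold of TBX2 in 1/7MC+Pyr+FGF against 1/7MC+Pyr was 1.32 ± 0.23, with means of 2.21 ± 0.705 CPM in 1/7MC+Pyr+FGF and 0.885 ± 0.0771 CPM in 1/7MC+Pyr. All 3 libraries of 1/7MC+Pyr+FGF lay above all 3 of 1/7MC+Pyr, and the fold lay between 1.06 and 1.52 when 1 library was left out at a time. For TBX20 the log2 fold was -0.15 ± 0.44, and it lay between -0.55 and 0.29 without 1 library. Of all genes, 2.76% were called and 0.639% were called higher in this comparison. The summed fibroblast markers lay below those of 1/7MC+Pyr in every library of 1/7MC+Pyr+FGF, at 15960 to 22746 CPM in 1/7MC+Pyr+FGF against 23659 to 35353 CPM in 1/7MC+Pyr. Of the 16 markers 2 were called lower and none with the replicate number as a block, and their part in the TBX2 difference was not tested.

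Set against 1/7MC, the libraries with both additions had less of both genes. The log2 fold in 1/7MC+Pyr+FGF against 1/7MC was -2.67 ± 0.21 for TBX2 and -6.25 ± 0.32 for TBX20, where 27.6% of all genes were called and 15.7% were called lower. Against MC, TBX2 was higher in 1/7MC+Pyr+FGF by 2.92 ± 0.28, while the value of TBX20 was -0.17 ± 0.44, where 32.5% of all genes were called and 17.1% were called higher. The share of the log2 distance covered in 1/7MC+Pyr+FGF was 47.7% for TBX2 and 102.8% for TBX20, and on the linear CPM scale it was 86.1% for TBX2 and 100.1% for TBX20. These comparisons share the libraries of 1/7MC or of MC, so they are not separate observations.

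**Figure D2:**
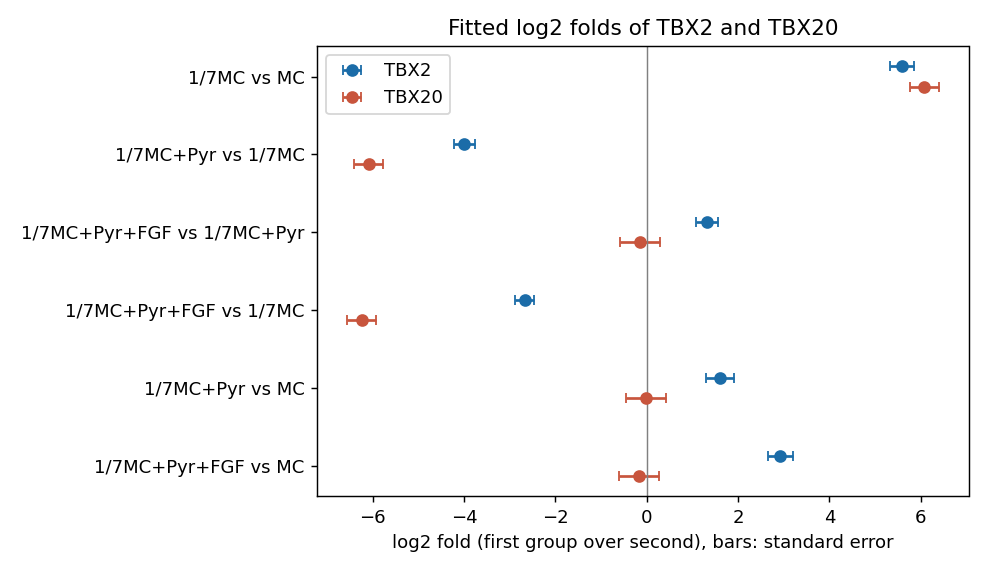
Fitted log2 folds of TBX2 and TBX20 in the 6 comparisons, first group over second, with standard errors as bars. The genes lie close together in 1/7MC against MC at 5.59 and 6.08 and apart in the other 5 comparisons, where the fold of TBX20 is near 0 unless 1/7MC is one of the groups.

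Divided by gene length, TBX20 was the more abundant of the pair in 1/7MC and TBX2 in 1/7MC+Pyr+FGF. The mean level of TBX2 per kilobase was 0.661 CPM in 1/7MC+Pyr+FGF, 0.265 CPM in 1/7MC+Pyr, 4.21 CPM in 1/7MC and 0.0873 CPM in MC. That of TBX20 was 0.156 CPM in 1/7MC+Pyr+FGF, 0.175 CPM in 1/7MC+Pyr, 11.8 CPM in 1/7MC and 0.171 CPM in MC. The ratio of TBX20 to TBX2 per length was 0.142, 0.381 and 0.229 in 1/7MC+Pyr+FGF and 0.997, 0.309 and 0.640 in 1/7MC+Pyr. It was 2.48, 3.18 and 2.68 in 1/7MC and 1.94, 3.09 and 1.30 in MC. All 6 libraries with pyruvate had a ratio below 1 and all 6 without it a ratio above 1. The MC values rest on 6 to 10 counts of either gene per library. TBX20 had only 4 to 12 counts per library in 1/7MC+Pyr and 6 to 11 in 1/7MC+Pyr+FGF. At such counts several of these ratios cannot be told from 1. Among them are 0.997 and 0.640 in 1/7MC+Pyr replicates 1 and 3 and 1.30 in MC replicate 3. The side of 1 is therefore not settled in every library. The lengths, 3341 bases for TBX2 and 1546 for TBX20, are those of the deposited table.

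The other T-box genes were then compared, with edgeR's quasi-likelihood test and Benjamini-Hochberg adjusted p-values over all 13920 genes. Of 17 T-box genes, all had an entry and 10 passed the filter on low counts, 8 of them besides TBX2 and TBX20. TBX4, TBX5, TBX15, TBX19, TBX21, TBXT and TBR1 did not pass, with at most 13 counts in any library. TBX5, a heart and forelimb factor, had 0 counts in all 12 libraries, and TBXT, the mesoderm factor brachyury, had 2 counts in all.

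TBX3, the paralogue of TBX2 and in mouse a factor of embryonic stem cells, had the group order of TBX2 on a smaller scale. It read 2.34, 2.33 and 3.66 CPM in 1/7MC+Pyr+FGF and 1.54, 1.64 and 1.53 CPM in 1/7MC+Pyr. It read 9.07, 8.75 and 7.16 CPM in 1/7MC and 0.924, 0.511 and 0.742 CPM in MC, and no groups overlapped. TBX3 rose by 3.51 ± 0.25 in 1/7MC against MC (adjusted p = 4.46e-07) and fell by 2.40 ± 0.23 in 1/7MC+Pyr against 1/7MC (log2 fold -2.40, adjusted p = 2.51e-05).

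With FGF on top of pyruvate, TBX3 had a log2 fold of 0.82 ± 0.23 that missed the threshold (adjusted p = 0.0819), although all 3 libraries of 1/7MC+Pyr+FGF were above all 3 of 1/7MC+Pyr. DESeq2 put the same TBX3 difference at an adjusted p of 0.0254, and edgeR at 0.0450 without MC replicate 1. Under every other alternative run, this TBX3 difference stayed uncalled. TBX3 stayed higher in 1/7MC+Pyr than in MC by 1.10 ± 0.26 (adjusted p = 0.00796), which with MC replicate 1 alone became 0.78 (adjusted p = 0.224). The shares of the log2 distance that TBX3 covered were 45.2% in 1/7MC+Pyr+FGF and 68.6% in 1/7MC+Pyr, against 47.7% and 71.4% for TBX2 in the same order. On the CPM scale they were 73.0% and 88.9% for TBX3, against 86.1% and 95.7% for TBX2.

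TBX18, a factor of the sinus horn and of the heart's outer layer in mouse, was also highest in 1/7MC but had a different order below it. TBX18 read 3.42, 4.24 and 4.76 CPM in 1/7MC+Pyr+FGF and 6.13, 4.92 and 5.01 CPM in 1/7MC+Pyr. It read 9.65, 12.3 and 11.0 CPM in 1/7MC and 1.46, 0.958 and 0.705 CPM in MC. TBX18 rose by 3.38 ± 0.24 in 1/7MC against MC (adjusted p = 4.29e-07) and fell in 1/7MC+Pyr against 1/7MC (log2 fold -1.04 ± 0.21, adjusted p = 0.00445). It had a log2 fold of -0.37 ± 0.21 in 1/7MC+Pyr+FGF against 1/7MC+Pyr (adjusted p = 0.349) and covered 41.8% of the log2 distance in 1/7MC+Pyr+FGF and 30.8% in 1/7MC+Pyr. On the CPM scale these shares of TBX18 were 68.8% and 56.6%.

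EOMES, a factor of mesoderm, endoderm and trophoblast, ran the other way. It read 1.24, 1.91 and 1.42 CPM in 1/7MC+Pyr+FGF, 3.19, 3.91 and 2.66 CPM in 1/7MC+Pyr, 1.62, 1.72 and 1.67 CPM in 1/7MC, and 3.87, 4.05 and 3.71 CPM in MC. EOMES fell in 1/7MC against MC (log2 fold -1.21 ± 0.20, adjusted p = 0.000381) and rose in 1/7MC+Pyr against 1/7MC (0.96 ± 0.20, adjusted p = 0.00584). It fell again in 1/7MC+Pyr+FGF against 1/7MC+Pyr (-1.11 ± 0.20, adjusted p = 0.0136), a call that was lost without 1/7MC+Pyr+FGF replicate 1 (-0.97, adjusted p = 0.0752).

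Of the 8 T-box genes besides TBX2 and TBX20, 2 rose and 4 fell in 1/7MC against MC, with a median log2 fold of -0.53, beside 23.7% of all genes higher and 21.3% lower. The fallers were EOMES, TBX6, TBX22 and MGA, and with MC replicate 1 alone 2 rose and 2 fell. With pyruvate, in 1/7MC+Pyr against 1/7MC, 1 rose and 2 fell (median -0.05), beside 8.08% of all genes higher and 10.1% lower. In 1/7MC+Pyr+FGF against 1/7MC+Pyr 1 fell and none rose (median -0.28), with 2 genes at an unadjusted p under 0.05 and 1 rising by DESeq2, beside 0.639% of all genes higher and 2.12% lower. Against 1/7MC, 1/7MC+Pyr+FGF had 3 lower and none higher (median -0.37; 4 at an unadjusted p under 0.05; 1 higher by DESeq2), beside 11.9% of all genes higher and 15.7% lower. Against MC, 2 rose and 3 fell in 1/7MC+Pyr+FGF (median -0.40), beside 17.1% of all genes higher and 15.4% lower, and 2 rose in 1/7MC+Pyr (median -0.22), beside 15.2% higher. The medians over all genes lay between -0.01 and 0.04 in the 6 comparisons. TBX1 rested on 71 counts over the 12 libraries, with 1, 16 and 16 in MC, and its calls were lost under 5 or more of the alternatives.

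**Figure D3:**
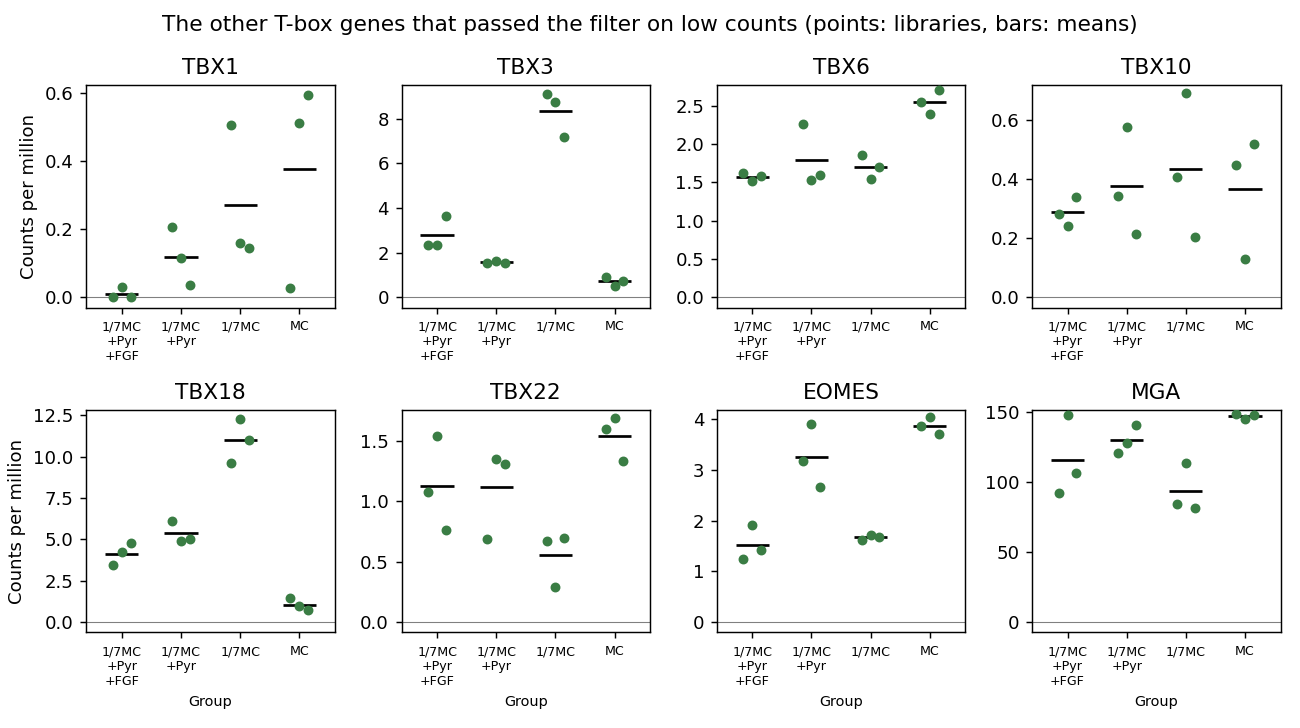
CPM of the 8 other T-box genes that passed the filter on low counts, by group, with libraries as points and group means as bars. TBX3 (8.33 CPM) and TBX18 (11.0 CPM) have their highest mean in 1/7MC, while TBX6, TBX22, EOMES and MGA are lowest or near their lowest there and highest in MC.

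Likeness to TBX2 and to TBX20 was measured as Pearson's r of log2 CPM over the 12 libraries, among 1101 genes whose group means spanned at least 2 on the log2 scale. It describes these libraries only, since all points share 4 groups and the same depths. The genes most like TBX2 were TBX3 (r = 0.988), TMEFF2 (0.978), CALCRL (0.977), FLI1 (0.976), DKK1 (0.974) and TWIST1 (0.973). Those most like TBX20 were LGR5 (0.988), CP (0.985), SDK2 (0.975), PMEL (0.974), WNT4 (0.972) and HCRT (0.971). TBX2 and TBX20 had r = 0.854 with each other, which placed TBX20 at rank 209 for TBX2.

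The genes like TBX2 were chosen over all 12 libraries, so their values are a description without a test. DKK1, a secreted WNT inhibitor, read 8.85, 6.56 and 8.96 CPM in 1/7MC+Pyr+FGF against 3.63, 3.25 and 2.81 CPM in 1/7MC+Pyr, a log2 fold of 1.33 ± 0.17. TWIST1, a factor of mesenchyme, read 9.11, 10.7 and 11.6 CPM in 1/7MC+Pyr+FGF against 6.65, 6.21 and 6.68 CPM in 1/7MC+Pyr, a log2 fold of 0.69 ± 0.12. For both genes all 3 libraries of 1/7MC+Pyr+FGF lay above all 3 of 1/7MC+Pyr. The log2 folds in this step were 0.68 ± 0.23 for TMEFF2, 0.20 ± 0.17 for the peptide receptor gene CALCRL and 0.22 ± 0.21 for the ETS factor gene FLI1.

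The genes like TBX20 were chosen in the same way, and their high level in 1/7MC is what chose them. LGR5, a WNT target and R-spondin receptor, read 1.03, 1.06 and 0.879 CPM in 1/7MC+Pyr+FGF and 1.13, 0.834 and 1.21 CPM in 1/7MC+Pyr. LGR5 read 11.9, 17.8 and 13.7 CPM in 1/7MC and 1.37, 1.15 and 1.34 CPM in MC. PMEL, a pigment cell gene, had 6.77, 6.53 and 7.65 CPM in 1/7MC+Pyr+FGF, 10.7, 11.3 and 9.91 CPM in 1/7MC+Pyr, 139, 134 and 140 CPM in 1/7MC, and 11.1, 13.1 and 13.4 CPM in MC. The 3 PMEL libraries of 1/7MC+Pyr+FGF lay below all others, which those of TBX20 did not.

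**Figure D4:**
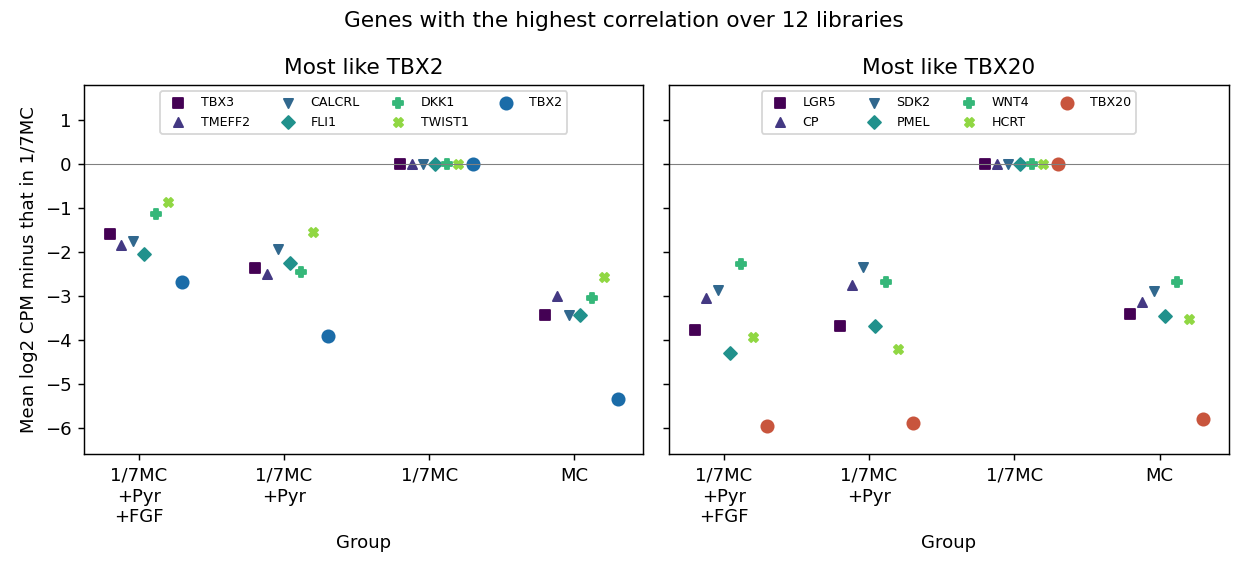
Mean log2 CPM in each group minus that in 1/7MC, for TBX2 with the 6 genes most like it (left) and TBX20 with the 6 most like it (right). On the left the points step down from 1/7MC+Pyr+FGF over 1/7MC+Pyr to MC, and on the right the groups other than 1/7MC lie at similar depths.

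The BMP pathway, which induces Tbx2 in mouse and chick, was read from 25 genes. In 1/7MC against MC 13 rose and 3 fell, with a median log2 fold of 0.90, beside 23.7% of all genes higher and 21.3% lower. BAMBI, a decoy receptor that BMP signals induce, rose by 4.78 ± 0.19 (adjusted p = 8.07e-09), SMAD9, a signal carrier, by 3.42 ± 0.32 (adjusted p = 3.92e-06) and the ligand gene BMP5 by 3.10 ± 0.34 (adjusted p = 1.35e-05). With MC replicate 1 alone, 14 rose and 1 fell. With pyruvate, in 1/7MC+Pyr against 1/7MC, 1 rose and 14 fell, with a median of -0.81, where 8.08% of all genes were called higher and 10.1% lower.

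When FGF was added to pyruvate, 3 of the 25 BMP pathway genes rose and 1 fell. BAMBI read 19.3, 17.1 and 27.9 CPM in 1/7MC+Pyr+FGF against 9.22, 11.4 and 10.1 CPM in 1/7MC+Pyr, a rise of 1.07 ± 0.16 (adjusted p = 0.00606). MSX2, a homeobox gene that BMP induces, read 6.86, 7.53 and 7.23 CPM in 1/7MC+Pyr+FGF against 3.63, 4.17 and 3.30 CPM in 1/7MC+Pyr, a rise of 0.96 ± 0.15 (adjusted p = 0.00772). The ligand gene BMP4 rose by 0.59 ± 0.11 (adjusted p = 0.0159), a call lost without 1/7MC+Pyr replicate 3 (0.52, adjusted p = 0.0817) and with the replicate number as a block (0.58, adjusted p = 0.0520). BMP2 fell by 1.20 ± 0.26 (log2 fold -1.20, adjusted p = 0.0299), a call lost in 7 of the alternatives at adjusted p of 0.0513 to 0.130. The median of the 25 genes was 0.10, and 0.639% of all genes were called higher and 2.12% lower.

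BAMBI and MSX2 had the group order of TBX2 in their means, as had other genes of the list, among them BMP4 and BMP5. Further genes of the list, among them SMAD9, BMP2 and BMP7, did not have that order. BAMBI averaged 21.4 ± 5.69 CPM in 1/7MC+Pyr+FGF, 10.2 ± 1.08 CPM in 1/7MC+Pyr, 60.9 ± 5.77 CPM in 1/7MC and 2.21 ± 0.120 CPM in MC (SD, n = 3 each). MSX2 averaged 7.21 ± 0.336 CPM in 1/7MC+Pyr+FGF, 3.70 ± 0.437 CPM in 1/7MC+Pyr, 9.87 ± 0.813 CPM in 1/7MC and 3.32 ± 0.611 CPM in MC. The libraries of MSX2 overlapped between 1/7MC+Pyr and MC, which those of TBX2 did not. The part of BMP signalling in the level of TBX2 was not tested.

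**Figure D5:**
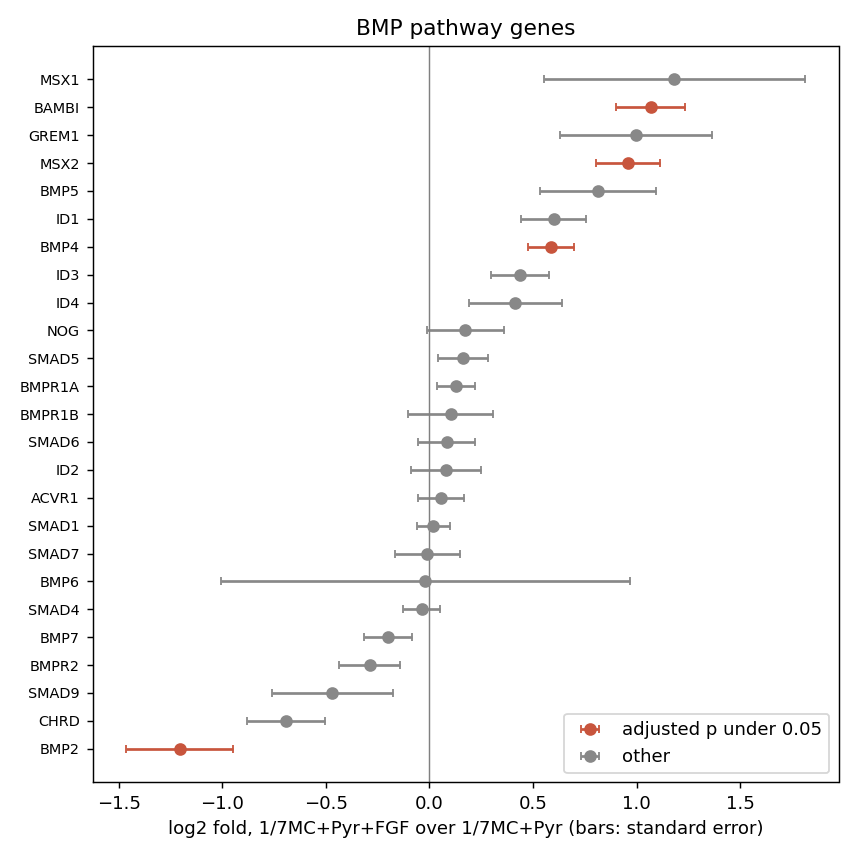
Fitted log2 folds of the 25 BMP pathway genes in 1/7MC+Pyr+FGF over 1/7MC+Pyr, with standard errors as bars and genes at adjusted p under 0.05 in red. BAMBI (1.07), MSX2 (0.96) and BMP4 (0.59) are higher and BMP2 (-1.20) is lower.

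Genes that earlier work in other systems reported as bound or repressed by TBX2 moved in both directions. Of 11 tested, 3 rose and 5 fell in 1/7MC against MC (median -0.49), where 23.7% of all genes were called higher and 21.3% lower. CDKN2A, a cell cycle inhibitor repressed by TBX2 in mouse and human cells, rose by 2.38 ± 0.18 (adjusted p = 6.63e-07), and the inhibitor CDKN1C by 1.75 ± 0.23 (adjusted p = 7.11e-05). CDH1, the epithelial cadherin, fell (log2 fold -2.04 ± 0.20, adjusted p = 6.42e-06). CST6, a protease inhibitor, fell too (-1.75 ± 0.40, adjusted p = 0.00367), but had -0.42 (adjusted p = 0.456) with MC replicate 1 alone, where 3 of the list rose and 3 fell.

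NPPA, the atrial natriuretic peptide gene and a repressed target of TBX2 in mouse heart, was low in 1/7MC and higher in the groups with pyruvate. It had 87, 47 and 33 counts in 1/7MC+Pyr+FGF, 22, 39 and 37 in 1/7MC+Pyr, 3, 5 and 6 in 1/7MC, and 5, 5 and 9 in MC. NPPA rose by 2.92 ± 0.46 in 1/7MC+Pyr against 1/7MC (edgeR adjusted p = 0.000919) and had a log2 fold of -0.57 ± 0.56 in 1/7MC against MC (adjusted p = 0.433). Its counts were thus also low in MC, where TBX2 was lowest. With pyruvate, 4 of the 11 reported targets rose and 1 fell against 1/7MC (median 0.12), beside 8.08% of all genes higher and 10.1% lower. In 1/7MC+Pyr+FGF against 1/7MC+Pyr 1 rose and 2 fell (median -0.07), beside 0.639% of all genes higher and 2.12% lower. The gene that rose was CDKN1A, a cell cycle inhibitor (0.33 ± 0.08, adjusted p = 0.0385), and its call was lost under 13 of the alternatives, at adjusted p of 0.0527 to 0.198. With the replicate number as a block none of the list rose and 1 fell, none was called without 1/7MC+Pyr+FGF replicate 1, and none fell without 1/7MC+Pyr replicate 1.

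Of the heart transcription factors, the company that TBX2 and TBX20 keep in mouse heart, 13 were tested. In 1/7MC against MC 7 rose and 1 fell (median 0.69), beside 23.7% of all genes higher and 21.3% lower. Against 1/7MC none rose and 7 fell in 1/7MC+Pyr (median -0.86; 9 at an unadjusted p under 0.05; none rose by DESeq2), beside 8.08% of all genes higher and 10.1% lower. ISL1, a factor of heart progenitors and of motor neurons, read 5.20, 4.21 and 7.68 CPM in 1/7MC+Pyr+FGF, 6.58, 4.60 and 5.82 CPM in 1/7MC+Pyr, 15.8, 17.5 and 16.5 CPM in 1/7MC, and 0.588, 0.894 and 0.779 CPM in MC. ISL1 rose by 4.46 ± 0.26 in 1/7MC against MC (adjusted p = 9.24e-08) and had a log2 fold of 0.01 ± 0.21 with FGF on top of pyruvate (adjusted p = 0.986). HEY1, a Notch target, rose by 2.37 ± 0.18 in 1/7MC against MC (adjusted p = 8.26e-07) and fell in 1/7MC+Pyr against 1/7MC (-1.13 ± 0.17, adjusted p = 0.000701).

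ZFPM2, a partner of GATA factors, had 14, 15 and 15 counts in 1/7MC and 0 in each MC library. With FGF on top of pyruvate none of the 13 heart factors was called by edgeR or DESeq2, and none had an unadjusted p under 0.05 in edgeR, while 2.76% of all genes were called. GATA4, HAND1 and HAND2, defining factors of heart precursors, did not pass the filter, with at most 10 counts summed over a group, and NKX2-5 passed it without a call in any comparison. GATA6 passed it too, with means of 2.11 ± 0.335 CPM in 1/7MC and 0.996 ± 0.484 CPM in 1/7MC+Pyr (SD). GATA6 fell in 1/7MC+Pyr against 1/7MC (-1.07 ± 0.31, edgeR adjusted p = 0.0313). That call was lost with the replicate number as a block (adjusted p = 0.0504) and without some single libraries.

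Genes of the heart muscle cell moved in both directions. Of 12 tested, 5 rose and 3 fell in 1/7MC against MC (median -0.09), where the 3 that fell are a share close to the 21.3% of all genes called lower, beside 23.7% higher. In 1/7MC+Pyr 6 rose and 2 fell against 1/7MC (median 0.50), beside 8.08% of all genes higher and 10.1% lower. RYR2, the calcium release channel, fell in 1/7MC against MC (-2.61 ± 0.33, adjusted p = 4.28e-05), and KCNA5, a potassium channel gene, rose (2.68 ± 0.25, adjusted p = 3.89e-06). TNNT2, cardiac troponin T, had at most 6 counts summed over a group, and MYL2, the ventricular light chain, had 0 in all libraries. At the other end of the list, ACTC1 averaged 556 CPM in 1/7MC+Pyr+FGF, 523 CPM in 1/7MC+Pyr, 387 CPM in 1/7MC and 257 CPM in MC. MYL4, TNNC1 and MYH7 had means of 59.5, 29.2 and 19.6 CPM in 1/7MC and 36.9, 34.9 and 18.5 CPM in MC. With FGF on top of pyruvate none of the 12 was called by edgeR, which is near the 2.76% of all genes called. Of the 12, 3 had an unadjusted p under 0.05, and DESeq2 called 3 higher, where it called 902 genes in all.

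In the eye, Tbx2 in mouse and chick belongs to the dorsal retina and Tbx20 is found in the optic vesicle, and 20 eye genes were tested. In 1/7MC against MC 11 rose and 5 fell (median 0.93), beside 23.7% of all genes higher and 21.3% lower, so the 5 that fell are a share close to that of all genes. In 1/7MC+Pyr 1 rose and 11 fell against 1/7MC (median -1.10), beside 8.08% higher and 10.1% lower. RORB, a retinal nuclear receptor, rose by 5.58 ± 0.22 (adjusted p = 8.07e-09), SIX6, a retina and hypothalamus factor, by 3.56 ± 0.25 (adjusted p = 4.46e-07) and MITF, the pigment cell factor, by 3.08 ± 0.37 (adjusted p = 3.22e-05). With pyruvate SIX6 fell (-4.94 ± 0.28, adjusted p = 8.06e-07) and MITF fell (-2.96 ± 0.37, adjusted p = 0.000191).

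RAX, an eye field factor, had a mean of 0.835 ± 0.356 CPM in 1/7MC+Pyr+FGF, 0.596 ± 0.103 CPM in 1/7MC+Pyr, 7.73 ± 2.15 CPM in 1/7MC and 12.1 ± 0.463 CPM in MC (SD, n = 3 each). RAX was low in both groups with pyruvate, as TBX20 was, and high in MC, where TBX20 was low. With FGF on top of pyruvate 1 of the 20 eye genes rose, which was BMP4, and 1 fell, which was RORB (-1.30 ± 0.17, adjusted p = 0.00251). Of all genes, 0.639% were called higher and 2.12% lower in that step. With the replicate number as a block none of the eye genes rose and 1 fell. The list overlaps the BMP pathway in BMP4 and BMPR1B.

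Of 8 tested factors of brainstem motor neurons, where Tbx20 is active in mouse, 3 rose and 3 fell in 1/7MC against MC (median -0.38), beside 45.0% of all genes called, and with MC replicate 1 alone 4 rose and none fell. GATA3 rose by 3.93 ± 0.32 (adjusted p = 1.28e-06) and ISL2 by 1.54 ± 0.36 (adjusted p = 0.00390), and ISL1, which also stands in the heart list, is given above. The 3 that fell were NKX6-2 (-2.07 ± 0.67, adjusted p = 0.0250), LMX1B (-1.27 ± 0.32, adjusted p = 0.00681) and PHOX2A (-0.88 ± 0.20, adjusted p = 0.00307). Against 1/7MC, 2 fell and none rose in 1/7MC+Pyr (median -0.83; 4 at an unadjusted p under 0.05; none rose by DESeq2), where 10.1% of all genes were called lower, among them GATA3 (-2.05 ± 0.28, adjusted p = 0.000329).

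Of 14 response genes of FGF and its kinase ERK, none was called by edgeR in 1/7MC+Pyr+FGF against 1/7MC+Pyr, the step in which TBX2 was higher (median -0.05), 1 had an unadjusted p under 0.05, and DESeq2 called 1 higher. With 2.76% of all genes called in that step, none of 14 is near the share of all genes. Beside 23.7% of all genes higher and 21.3% lower, 8 rose and 4 fell in 1/7MC against MC (median 0.45), with FOS (-2.66 ± 0.16, adjusted p = 1.39e-07) and EGR1 (-2.63 ± 0.11, adjusted p = 1.05e-08) lower and PHLDA1 (2.15 ± 0.11, adjusted p = 3.35e-08) higher. With MC replicate 1 alone 5 rose and 2 fell.

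Markers of other cells were set beside TBX2 and TBX20. Of the 16 markers of fibroblasts and feeders, 11 had their highest mean in 1/7MC, as TBX2 and TBX20 had, 4 in 1/7MC+Pyr and 1 in 1/7MC+Pyr+FGF. With pyruvate 2 of them rose and 7 fell against 1/7MC (median -0.14), beside 8.08% of all genes higher and 10.1% lower, and leaving out 1 library gave 1 to 5 that rose and 4 to 7 that fell.

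In 1/7MC+Pyr+FGF against 1/7MC+Pyr the collagen gene COL1A2 and the matrix gene POSTN fell and none of the 16 rose (median -0.30; 7 at an unadjusted p under 0.05; none rose by DESeq2), beside 2.12% of all genes lower. DESeq2 called 4 lower. None was called lower with the replicate number as a block, nor without replicate 1 or 3 of 1/7MC+Pyr or replicate 1 or 2 of 1/7MC+Pyr+FGF. Without 1/7MC+Pyr+FGF replicate 3 the calls of COL1A2 (edgeR adjusted p = 0.0709) and POSTN (0.0513) were lost too. The call of COL1A2 was also lost without MC replicate 2 or 3 and without 1/7MC replicate 1 or 3.

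Against MC, 15 of the 16 were higher in 1/7MC+Pyr+FGF, beside 17.1% of all genes, and 15 in 1/7MC+Pyr, beside 15.2% of all genes. Fewer were called in both with MC replicate 1 alone. The TBX20 libraries of these groups overlapped those of MC. The remaining marker, the growth factor receptor gene PDGFRA, had the course of TBX20. PDGFRA averaged 1.58 ± 0.337 CPM in 1/7MC+Pyr+FGF, 1.76 ± 0.498 CPM in 1/7MC+Pyr, 5.74 ± 0.399 CPM in 1/7MC and 1.72 ± 0.349 CPM in MC. It rose by 1.74 ± 0.24 in 1/7MC against MC (adjusted p = 9.52e-05) and fell in 1/7MC+Pyr against 1/7MC (-1.71 ± 0.24, adjusted p = 0.000449). FAP, a protein of activated fibroblasts, had means of 0.512 ± 0.196 CPM in 1/7MC+Pyr+FGF, 0.731 ± 0.295 CPM in 1/7MC+Pyr, 4.47 ± 0.793 CPM in 1/7MC and 0.0910 ± 0.0516 CPM in MC. The part of these markers in the levels of TBX2 and TBX20 was not tested.

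Of 8 endothelial markers 3 rose and 3 fell in 1/7MC against MC (median 0.74), beside 23.7% of all genes higher and 21.3% lower, and 2 rose and 2 fell with MC replicate 1 alone. EMCN, an endothelial sialomucin, had the group order of TBX2 without overlap, with means of 1.35 ± 0.0735 CPM in 1/7MC+Pyr+FGF, 1.07 ± 0.121 CPM in 1/7MC+Pyr, 8.08 ± 1.29 CPM in 1/7MC and 0.165 ± 0.0795 CPM in MC. EMCN rose by 5.55 ± 0.28 in 1/7MC against MC (adjusted p = 3.01e-08) and fell in 1/7MC+Pyr against 1/7MC (-2.91 ± 0.22, adjusted p = 5.00e-06). PECAM1, an adhesion gene, rose by 3.38 ± 0.58 in 1/7MC against MC (adjusted p = 0.000494), on 49 counts in 1/7MC and 4 in MC. The receptor genes KDR (-1.16 ± 0.27, adjusted p = 0.00347) and TEK (-0.70 ± 0.14, adjusted p = 0.00115) fell in that comparison. KDR and TEK, the most abundant of the 8, set most of the summed level, which was 36.2 to 56.9 CPM in 1/7MC+Pyr+FGF, 28.2 to 31.2 CPM in 1/7MC+Pyr, 22.3 to 29.6 CPM in 1/7MC and 27.3 to 30.0 CPM in MC. The part of these markers in the level of TBX2 was not tested either.

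The pluripotency markers moved against TBX2 and TBX20 in the first 2 steps. Of 9 tested, none rose and 8 fell in 1/7MC against MC (median -0.69; 8 at an unadjusted p under 0.05; none rose by DESeq2), beside 21.3% of all genes lower. In 1/7MC+Pyr 8 rose and none fell against 1/7MC (median 0.66; 8 at an unadjusted p under 0.05; none fell by DESeq2), beside 8.08% of all genes higher. With FGF on top of pyruvate none rose and 3 fell (median -0.02; 4 at an unadjusted p under 0.05; none rose by DESeq2), beside 2.12% of all genes lower. EPCAM, an epithelial adhesion gene, was the gene of the list with the largest fall there (-1.07 ± 0.11, adjusted p = 0.000593).

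In the comparisons with 1/7MC, neighbouring genes had smaller differences than TBX2 and TBX20. Names and order of neighbours were taken from a RefSeq table of the assembly ARS-UCD2.0, which is another build than that of the counts, so no positions are given. Next to TBX2 stand TBX4, which did not pass the filter, BRIP1 and BCAS3. BCAS3 had log2 folds of 0.05 ± 0.13 in 1/7MC against MC (edgeR adjusted p = 0.765) and -0.20 ± 0.13 in 1/7MC+Pyr+FGF against 1/7MC+Pyr (adjusted p = 0.390). BRIP1, a DNA repair helicase gene, fell against MC in 1/7MC+Pyr (-0.43 ± 0.13, adjusted p = 0.0283) and in 1/7MC (-0.44 ± 0.13, adjusted p = 0.0168). With MC replicate 1 alone neither call of BRIP1 passed (adjusted p = 0.224 and 0.127 in the same order). A pseudogene and another gene overlap TBX2 in that table and have no entry in the counts. The overlap is one of whole gene spans, and whether reads counted for TBX2 came from these genes was not tested.

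Next to TBX20 stand DPY19L2, which did not pass the filter, DPY19L1, LOC780968 and HERPUD2. DPY19L1, a mannosyltransferase gene, read 83.7, 86.7 and 86.6 CPM in 1/7MC+Pyr+FGF, 78.7, 90.1 and 90.8 CPM in 1/7MC+Pyr, 108, 123 and 107 CPM in 1/7MC, and 66.9, 63.0 and 61.5 CPM in MC. It rose by 0.82 ± 0.09 in 1/7MC against MC (adjusted p = 1.15e-05) and fell in 1/7MC+Pyr against 1/7MC (-0.38 ± 0.09, adjusted p = 0.00971), so it was highest in 1/7MC like TBX20 with a smaller difference. Against MC, where TBX20 had -0.17 and -0.02, DPY19L1 was higher in 1/7MC+Pyr+FGF (0.43 ± 0.09, adjusted p = 0.00314) and in 1/7MC+Pyr (0.44 ± 0.09, adjusted p = 0.00274), calls lost with MC replicate 1 alone (adjusted p = 0.152 and 0.126). HERPUD2 rose by 0.54 ± 0.13 in 1/7MC against MC (adjusted p = 0.00452) and by 0.72 ± 0.13 in 1/7MC+Pyr+FGF against MC (adjusted p = 0.00126), and had a log2 fold of -0.25 ± 0.13 in 1/7MC+Pyr against 1/7MC (adjusted p = 0.202). LOC780968 had -1.18 ± 0.36 in 1/7MC+Pyr against MC (adjusted p = 0.0268), which became 0.067 with MC replicate 1 alone (adjusted p = 0.939).

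Over most of the genes named here and further genes of the same lists, 303 calls of a gene in a comparison were checked library by library. In 300 of them all 3 libraries of the first group lay beyond all 3 of the second. Only differences already called were checked, at 3 libraries per group, so the selection itself favours separation and the count adds no support. The exceptions were TBX1 in 1/7MC+Pyr+FGF against MC and CST6 in 1/7MC+Pyr against MC, each with 2 of 3 libraries beyond, and LOC780968 in 1/7MC+Pyr against MC, with 1 of 3.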

How the data were processed

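Poly-A RNA of 12 bovine libraries was sequenced. Tools named in the submitters' processing notes are featureCounts, Subread 2.0, HISAT2 2.1.0 and fastp 0.19.7, with bosTau9 as the build. Order, settings and gene annotation are not given in the sources used here, and no strand-marking step is stated. The deposited table holds whole-number counts per gene, which the authors did not normalise, with gene lengths. A second deposited table, labelled TPM, is a signal equal to count over length times a constant of 4.94, with column sums of 66798 to 118022 and thus no correction for depth, so it served only as an alternative (rescaled to equal sums, log2 with pseudocount 1, limma 3.58.1).

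Of 19285 entries, 400 that shared an identifier were left out (1.07% to 1.40% of counts), which left 18885, and 18803 of these received a symbol by Entrez identifier. The gene models behind MC replicates 2 and 3 differed from the rest: 128 Ensembl identifiers each stood in several entries, and the entries differed in count for 80 to 86 identifiers in each of 10 libraries and for 0 in these. Genes were filtered with filterByExpr, scaled with TMM (factors 0.968 to 1.04) and tested by quasi-likelihood F tests in edgeR 4.0.16, 1 coefficient per group, with Benjamini-Hochberg adjustment over 13920 genes and a threshold of 0.05. The SE is the log2 fold over the square root of F. CPM are counts scaled to the TMM-adjusted library size, and log2 CPM used a prior count of 2. The fit was tested on simulated data. DESeq2 1.42.0, R 4.3.3, Python 3.11.15 and matplotlib 3.10.9 were used.

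TBX2, TBX20 and the 11 gene lists were chosen with earlier results of these data known. Named are the T-box genes, up to 4 called genes per list and comparison with the largest folds, genes a result turns on, 3 neighbours on each side, and the 6 most alike genes. TNNT2, MYL2, GATA4, HAND1, HAND2 and NKX2-5 outside that rule were chosen after their values were seen. Sequences were not analysed here.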

Additional observations from a re-analysis of the deposited data

How the results depend on the processing

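TBX2 kept its direction in the 6 comparisons, and TBX20 in the 3 with 1/7MC, under every alternative run. The 3 comparisons of TBX20 among the other groups rest on 24 to 26 counts per group, and their values lay around 0, between -0.55 and 0.37 without 1 library. On the deposited signal per length with a pseudocount of 1, which shrinks low levels, TBX2 had 3.06 in 1/7MC against MC, -2.65 in 1/7MC+Pyr against 1/7MC, 0.54 in 1/7MC+Pyr+FGF against 1/7MC+Pyr, -2.11 in 1/7MC+Pyr+FGF against 1/7MC, 0.40 in 1/7MC+Pyr against MC and 0.94 in 1/7MC+Pyr+FGF against MC, and TBX20 had 4.24, -4.21 and -4.27 in 1/7MC against MC, 1/7MC+Pyr against 1/7MC and 1/7MC+Pyr+FGF against 1/7MC. The T-box genes called besides TBX2 and TBX20 numbered 1 in 1/7MC+Pyr+FGF against 1/7MC+Pyr, 2 with DESeq2 and 0 to 2 without 1 library, with 2 without MC replicate 1 and 0 without 1/7MC+Pyr+FGF replicate 1. They numbered 2 in 1/7MC+Pyr against MC and 1 with MC replicate 1 alone, and 5 in 1/7MC+Pyr+FGF against MC, 3 with MC replicate 1 alone and 3 to 6 without 1 library. The causes were not tested.

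Same-numbered replicates did not deviate together (r of -0.316 to 0.333 over 18 pairs, median -0.0429). With the replicate number as a block, 1/7MC+Pyr+FGF against 1/7MC+Pyr gave 1.29 for TBX2 and -0.16 for TBX20, and 181 genes called in place of 384. That all-gene count was 902 with DESeq2 and 127 to 736 without 1 library. With MC replicate 1 alone the all-gene counts were 3438 in place of 6268 for 1/7MC, 1394 in place of 3949 for 1/7MC+Pyr and 1723 in place of 4527 for 1/7MC+Pyr+FGF, each against MC. Of 304 gene results, 12 lost their call with the block, 43 with MC replicate 1 alone and 6 to 18 without 1 library. The direction turned for LOC780968 in 1/7MC+Pyr against MC, which had 0.067 with MC replicate 1 alone in place of -1.18. Over the lists other than the T-box family 115 genes were called in any comparison, and 107 to 122 under the alternatives.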
